A study of Saccharomyces cerevisiae with 6 samples.

Results

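The genes described here encode the mevalonate pathway of budding yeast, Saccharomyces cerevisiae, from acetyl-CoA to squalene: ERG10, ERG13, HMG1, HMG2, ERG12, ERG8, MVD1, IDI1, ERG20 and ERG9. They are 10 of the 5551 genes with a probe set that names a single gene, and all 10 were measured. Each is named by 1 probe set with a plain suffix, which does not mark a match to several related sequences, so no choice between probe sets was needed and HMG1 and HMG2 have a probe set each. The rule that groups them is their place in the pathway.

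The mevalonate pathway builds the isoprenoid units of the cell. Acetyl-CoA is condensed to acetoacetyl-CoA and then to HMG-CoA, which HMG-CoA reductase turns into mevalonate; this is the main control point of the pathway and the enzyme that statins block in people. Mevalonate is phosphorylated and decarboxylated to isopentenyl diphosphate, which is isomerised and joined into farnesyl diphosphate. Farnesyl diphosphate is the branch point to dolichol, ubiquinone, heme A and prenylated proteins such as the a-factor pheromone, and squalene synthase commits it to ergosterol, the main sterol of yeast membranes. In yeast, transcription of many genes of the pathway responds to sterol and oxygen supply through Upc2, Ecm22, Hap1 and other factors.

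RNA of a tra1-2ts strain and of a TRA1 wild-type strain was compared on 6 expression arrays, 3 per strain. Tra1 is a large subunit shared by the SAGA and NuA4 coactivator complexes, and tra1-2ts is a temperature-sensitive allele. The mutant strain carried tra1-2ts and the wild-type strain TRA1, in each case on a centromeric LEU2 plasmid that covers a chromosomal tra1::HIS3 disruption. Both strains are of mating type a with the markers lys2-801, ura3-52, trp1∆63, ade2-101, leu2∆1 and his3∆200, and the labels name 1 strain per allele. Both were grown in rich medium (YPD) at 30 °C and moved to 37 °C, and each was sampled once at 60, 90 and 120 min. The design asks which genes depend on Tra1, but arrays of cells kept at 30 °C were not analysed here, so differences that were present at 30 °C cannot be told apart from those that arose at 37 °C. The replicates of a strain are its 3 times. The labels do not tell whether each time had its own culture, so the spread behind every p-value mixes change over time with variation that may be only technical.

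Values are log2 signals after RMA (robust multi-array average), so a difference of 1 is 2-fold and is measured against the other genes of the array. Array medians ran from 6.14 to 6.20. All 6 markers of mating type a were higher in tra1-2ts, with summed signals (log2 of the sum of linear signals) of 13.25 to 13.32 on tra1-2ts arrays and 11.77 to 11.99 on TRA1 arrays. The 4 alpha markers summed to 7.45 to 7.67 on tra1-2ts arrays and 6.96 to 7.18 on TRA1 arrays, and of these MF(ALPHA)1 and SAG1 were called higher in tra1-2ts; their part in the results below was not tested. STE3, which encodes the a-factor receptor of alpha cells, read 3.33 to 3.81 over the 6 arrays. The 4 probe sets for mouse genes, which yeast RNA should not bind, had means between 2.53 and 3.93, and the lowest value of any mevalonate gene on any array was 5.09. A level is not compared between genes, since each probe set has its own brightness.

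Most of the pathway was higher in tra1-2ts. Here and below, a gene that rose or fell was higher or lower in tra1-2ts than in TRA1, which is not a change over time. Of the 10 genes, 7 rose and none fell (limma, adjusted over all tested genes by Benjamini-Hochberg, threshold 0.05): ERG13, HMG1, ERG12, ERG8, MVD1, ERG20 and ERG9. Their rises ran from 1.30-fold to 2.21-fold, and ERG13 was the single gene of the 10 past 2-fold. ERG10, HMG2 and IDI1 did not pass. The RNA is that of whole cultures, so more RNA per cell and more cells with a high level cannot be told apart. Over all 5551 genes 18.3% were called higher and 22.3% lower in tra1-2ts, and 2.43% were called with a rise of at least 2-fold. The median difference of the 10 genes was 0.45, against 0.00108 over all tested genes. The same 7 genes were those whose 3 tra1-2ts arrays all lay above the 3 TRA1 arrays, an arrangement found in 26.1% of all tested genes, while 27.7% had all tra1-2ts arrays below.

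**Figure D1:**
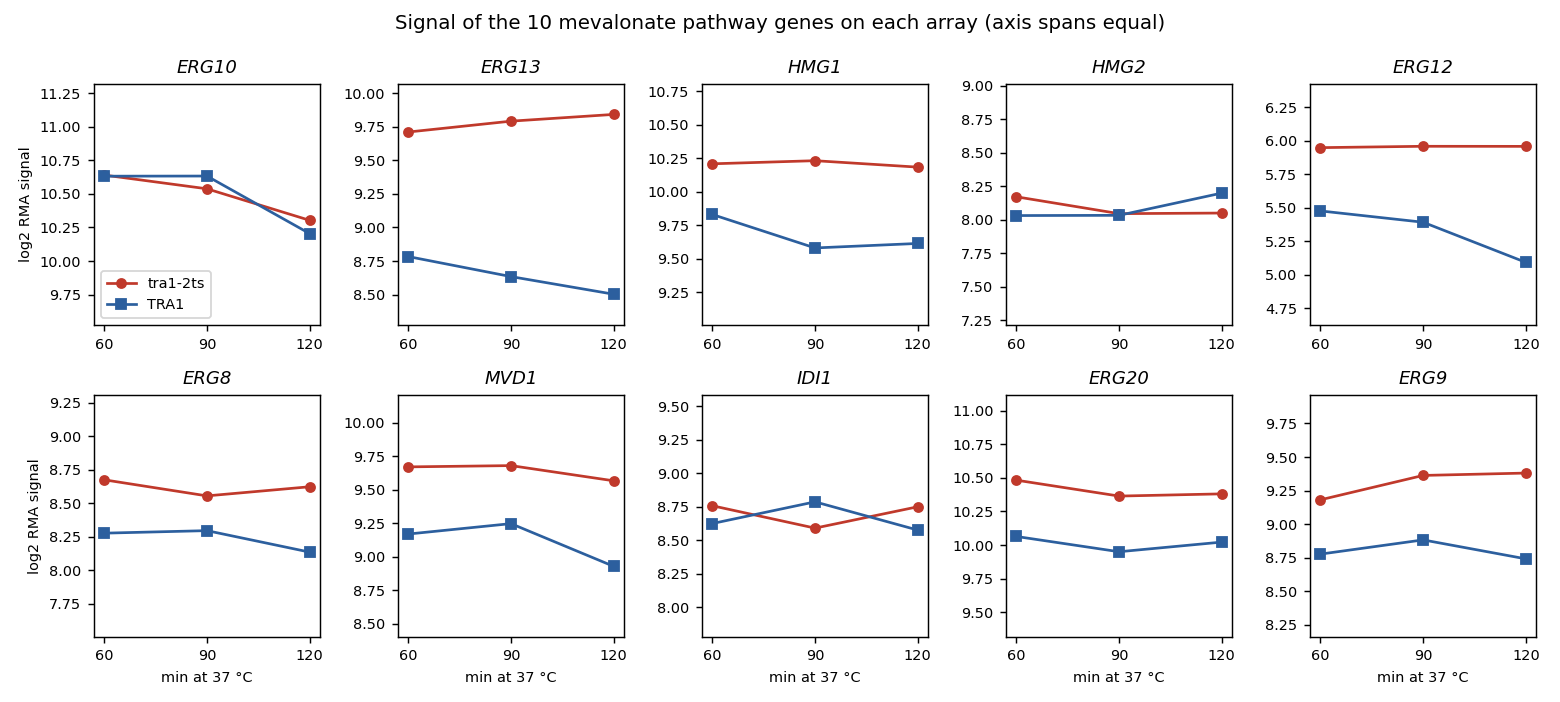
Log2 RMA signal (vertical axis) of each mevalonate pathway gene on each array, against minutes at 37 °C, with tra1-2ts as red circles and TRA1 as blue squares, 1 array per point. The strains are apart at all 3 times for ERG13, HMG1, ERG12, ERG8, MVD1, ERG20 and ERG9, and their lines cross for ERG10, HMG2 and IDI1.

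The pathway starts with ERG10, which encodes acetoacetyl-CoA thiolase, the enzyme that condenses acetyl-CoA units. ERG10 read 10.64, 10.54 and 10.30 in tra1-2ts at 60, 90 and 120 min, against 10.63, 10.63 and 10.20 in TRA1. The strains overlapped, and the lowest value of each was that at 120 min. The strain difference was 0.00396 with a standard error of 0.14 and a 95% interval from -0.32 to 0.33 (limma adjusted p = 0.984), so a change of up to about 0.33 in either direction is within the error.

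ERG13 encodes HMG-CoA synthase, the next enzyme, and had the largest difference of the 10 genes. It read 9.71, 9.79 and 9.84 in tra1-2ts, against 8.78, 8.63 and 8.50 in TRA1. The lowest tra1-2ts array was above the highest TRA1 array by more than the whole range of either strain. The means were 9.78 ± 0.066 in tra1-2ts and 8.64 ± 0.14 in TRA1 (SD, n = 3 each), a difference of 1.14 ± 0.10 (SE; 2.21-fold, limma adjusted p = 0.000137). Of all tested genes, 1.60% had a larger rise. The single-time differences were 0.93, 1.16 and 1.34 at 60, 90 and 120 min.

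HMG1 and HMG2 encode the isozymes of HMG-CoA reductase, which sit in the membrane of the endoplasmic reticulum. In yeast Hmg1 is the stable isozyme and supplies most of the activity in air, while Hmg2 is degraded when products of the pathway build up and is favoured when oxygen is short. HMG1 read 10.21, 10.23 and 10.18 in tra1-2ts, against 9.83, 9.58 and 9.61 in TRA1. The tra1-2ts arrays were nearly level and above every TRA1 array. The difference was 0.53 ± 0.096 (SE; 1.45-fold, limma adjusted p = 0.00271).

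HMG2 read 8.17, 8.05 and 8.05 in tra1-2ts, against 8.03, 8.03 and 8.20 in TRA1. The strains overlapped, with tra1-2ts above at 60 min by 0.14 and below at 120 min, at -0.15. The difference was 0.0012 with a 95% interval from -0.21 to 0.21 (limma adjusted p = 0.993). The interval of HMG1, from 0.31 to 0.75, does not reach that of HMG2. Taken within each array, the log ratio of HMG1 to HMG2 differed between the strains by 0.53 (1.45-fold). The 3 tra1-2ts arrays had log ratios of 2.04 to 2.18 and the 3 TRA1 arrays 1.41 to 1.80, without overlap. An exact two-sided permutation test over the arrays gave p = 0.1, the smallest that 3 against 3 arrays allow. Without overlap the test could give no other p. The ratio uses the same values as the strain differences of HMG1 and HMG2, so it repeats them and is no separate result. The size of each ratio also holds the brightness of the probe sets, so it is the difference between strains that can be read.

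The next 3 enzymes turn mevalonate into isopentenyl diphosphate, and the genes of all 3 rose. ERG12, mevalonate kinase, read 5.95, 5.96 and 5.96 in tra1-2ts, against 5.48, 5.39 and 5.09 in TRA1. Its tra1-2ts values had an SD of 0.00568, the smallest of the 10 genes in either strain, and its single-time differences were 0.47, 0.57 and 0.86 at 60, 90 and 120 min. The difference was 0.63 ± 0.11 (SE; 1.55-fold, limma adjusted p = 0.00248).

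ERG8, phosphomevalonate kinase, read 8.68, 8.56 and 8.62 in tra1-2ts, against 8.28, 8.30 and 8.14 in TRA1. The groups did not overlap, and this was the smallest of the 7 rises, at 0.38 ± 0.089 (SE; 1.30-fold, limma adjusted p = 0.0094). MVD1, mevalonate diphosphate decarboxylase, read 9.67, 9.68 and 9.57 in tra1-2ts, against 9.17, 9.25 and 8.93 in TRA1. Both strains had their lowest value at 120 min. The difference of MVD1 was 0.52 ± 0.11 (SE; 1.44-fold, limma adjusted p = 0.00454).

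The isomerase that follows was not among the genes that rose. IDI1, isopentenyl diphosphate isomerase, which makes the allylic partner for chain building, read 8.76, 8.59 and 8.75 in tra1-2ts, against 8.62, 8.79 and 8.58 in TRA1. The strains crossed: tra1-2ts was higher at 60 and 120 min by 0.13 and 0.17 and lower at 90 min, at -0.20. The difference was 0.04 with a 95% interval from -0.19 to 0.26 (limma adjusted p = 0.787).

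The last 2 genes make farnesyl diphosphate and squalene. ERG20, farnesyl diphosphate synthase, read 10.48, 10.36 and 10.38 in tra1-2ts, against 10.06, 9.95 and 10.02 in TRA1. Its difference was 0.40 ± 0.086 (SE; 1.32-fold, limma adjusted p = 0.00639), and it varied little with time, from 0.36 to 0.42. ERG9, squalene synthase, read 9.18, 9.36 and 9.38 in tra1-2ts, against 8.78, 8.88 and 8.74 in TRA1. The groups did not overlap, and the difference was 0.51 ± 0.095 (SE; 1.42-fold, limma adjusted p = 0.00315).

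**Figure D2:**
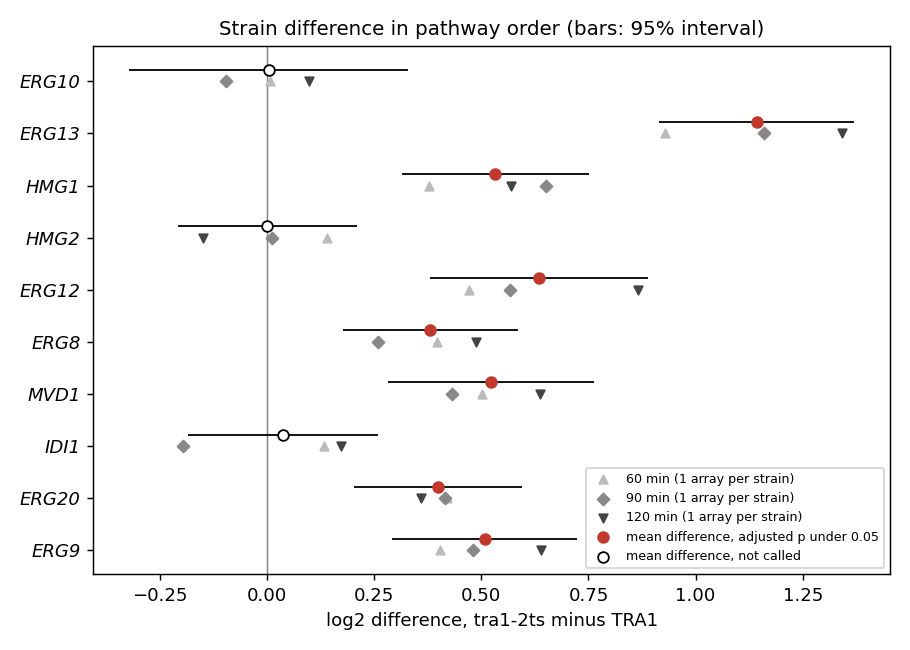
Log2 difference of tra1-2ts minus TRA1 (horizontal axis) for the 10 genes in pathway order from top to bottom. Circles with bars are the mean difference and its 95% interval, red where the adjusted p is under 0.05, and grey marks are the differences at single times. ERG13 stands farthest to the right at 1.14, and ERG10, HMG2 and IDI1 have intervals on both sides of 0.

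**Figure D3:**
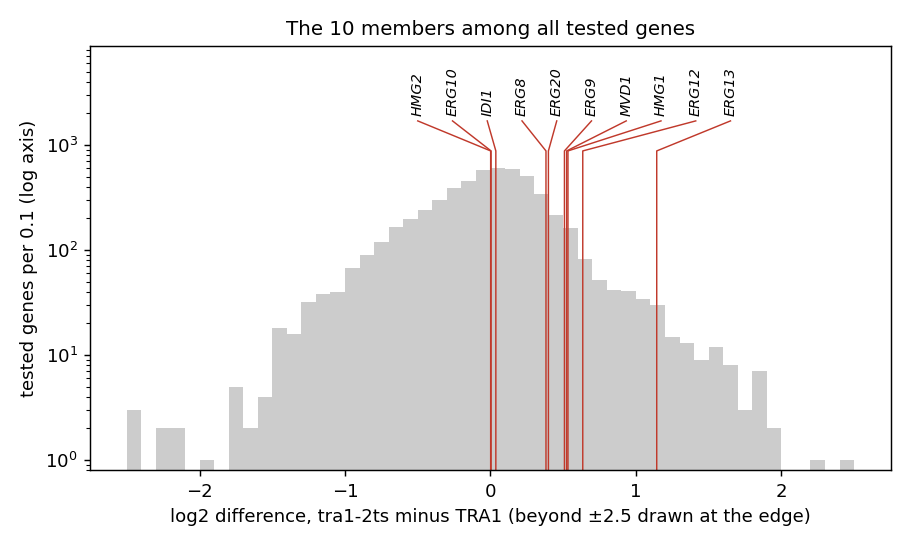
Distribution of the log2 difference of tra1-2ts minus TRA1 (horizontal axis) over all 5551 tested genes, as the number of genes per bin on a log axis, with the 10 genes marked by red lines. The 7 genes that rose lie between 0.38 and 1.14, and ERG10, HMG2 and IDI1 lie at the middle of the distribution.

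The size of the rise was set side by side for the 7 genes, and differences between genes were not tested. The 95% intervals of HMG1, ERG12, ERG8, MVD1, ERG20 and ERG9 overlap one another, and the lower bound for ERG13, 0.92, lies above the upper bound of each of them, of which the highest is that of ERG12 at 0.89. The share of all tested genes with a larger rise was 5.84% for ERG12, 8.18% for HMG1, 8.48% for MVD1, 8.94% for ERG9, 13.3% for ERG20 and 14.2% for ERG8. With both 90 min arrays left out, an alternative added after seeing the data, 4 of the 10 genes were called, ERG13, ERG12, MVD1 and ERG9, while HMG1, ERG8 and ERG20 had adjusted p of 0.0599, 0.0628 and 0.0848 (limma) with differences of 0.47, 0.44 and 0.39. In that fit 383 genes were called higher and 621 lower over the whole table, against 1014 and 1237 with all arrays. ERG8 also missed with both 120 min arrays left out (difference 0.33, adjusted p = 0.0663).

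The second question was how the genes moved between 60 and 120 min at 37 °C. All 10 genes were higher in tra1-2ts at 60 min, 8 at 90 min and 9 at 120 min, against 50.1%, 50.3% and 48.8% of all tested genes. The median difference of the 10 genes was 0.40 at 60 min, 0.42 at 90 min and 0.53 at 120 min, each from 1 array per strain and without a test. A slope shared by both strains, per 60 min, passed for none of the 10 genes, with adjusted p from 0.171 to 0.937 (limma); over all tested genes 0.324% were called, and at an unadjusted p under 0.05 there were 16.2% of all genes and 1 of the 10. That gene was ERG10, with the same direction in both strains and a slope of -0.38 ± 0.11 (SE; unadjusted p = 0.0104 and adjusted p = 0.171 in limma).

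From 60 to 120 min the signal was lower for 7 of the 10 genes in tra1-2ts and for 9 in TRA1, against 53.3% of all tested genes in tra1-2ts and 50.7% in TRA1. The median slope of the 10 genes was -0.04 in tra1-2ts and -0.18 in TRA1 (log2 per 60 min). HMG2 was the exception in TRA1, with a slope of 0.17, and ERG13, ERG12 and ERG9 were those with positive slopes in tra1-2ts, at 0.13, 0.00951 and 0.20.

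Of the 10 genes, 8 had a positive difference between the slopes. Its median was 0.11 over the 10 genes and -0.00728 over all tested genes. Only for ERG13, ERG12 and ERG9 did tra1-2ts minus TRA1 increase at each step from 60 to 90 to 120 min. The difference between the slopes was 0.41 ± 0.18 per 60 min for ERG13 and 0.39 ± 0.20 for ERG12 (SE). It was negative for HMG2, at -0.29 ± 0.20, and ERG20, at -0.06 ± 0.20. With single arrays left out it ran from 0.38 to 0.44 for ERG13, from 0.18 to 0.61 for ERG12 and from -0.45 to -0.12 for HMG2. With all arrays none of the 10 passed, with adjusted p from 0.717 to 0.987 (limma, 2 residual degrees of freedom). None of the 10 had an unadjusted p under 0.05. Over all tested genes 0% were called, while 7.06% had an unadjusted p under 0.05. The interval for ERG13 runs from -0.03 to 0.86, so a trend of that size could not be told from none with 3 arrays per strain.

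**Figure D4:**
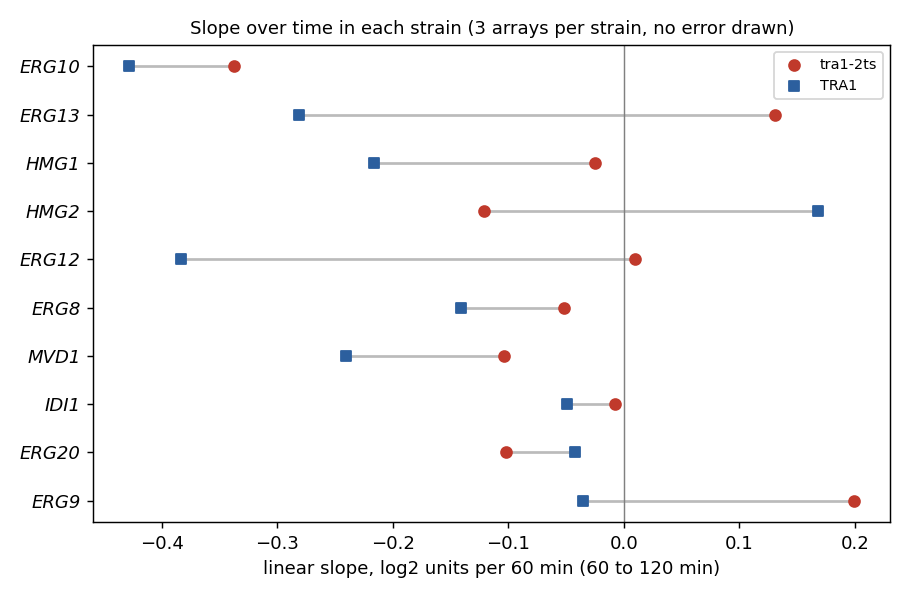
Linear slope over 60 to 120 min in log2 units per 60 min (horizontal axis) for each gene in pathway order, with tra1-2ts as red circles and TRA1 as blue squares and a grey line joining the strains. For ERG13 and ERG12 the tra1-2ts slopes are 0.13 and 0.00951 and the TRA1 slopes -0.28 and -0.38, and ERG10 is negative in both strains.

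Genes around the pathway were read from lists of its supply, products and control, whose counts stand beside the 18.3% of all tested genes that rose and the 22.3% that fell. Upstream, of 7 genes for enzymes that lead from pyruvate through acetaldehyde to acetyl-CoA, 4 rose and 1 fell, with a median of 0.37; the list includes ALD4, the mitochondrial acetaldehyde dehydrogenase, at -0.04. The cytosolic acetaldehyde dehydrogenase gene ALD6 rose by 0.88 ± 0.13 (SE) and the acetyl-CoA synthetase gene ACS2 by 0.57 ± 0.091, and the pyruvate decarboxylase genes PDC5 and PDC1 rose by 0.39 ± 0.093 and 0.37 ± 0.086. ACS1, the glucose-repressed acetyl-CoA synthetase, differed in the other direction, at -0.51 ± 0.13, a call that ended without the tra1-2ts 90 min array (adjusted p = 0.0545, limma). ALD6 read 9.75, 9.98 and 9.77 in tra1-2ts, against 8.94, 9.19 and 8.73 in TRA1. The groups did not overlap for ALD6 or for ACS2.

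Downstream, of 16 genes from squalene to ergosterol, 8 rose and 1 fell, with a median of 0.43, close to the 0.45 of the mevalonate genes. With arrays paired by time as a block, with centring on array medians and with quantile normalization, 9 were called higher in each fit. ERG1, squalene epoxidase, which takes the product of Erg9, rose by 0.72 ± 0.14, and ERG2 and ERG6 rose by 0.66 ± 0.090 and 0.58 ± 0.11 (SE). The sterol desaturase genes ERG5 and ERG3 and the sterol methyl oxidase gene ERG25 rose by 1.19 ± 0.12, 0.92 ± 0.11 and 0.87 ± 0.085. As in the mevalonate part, genes that rose stood beside genes that did not pass: ERG7, lanosterol synthase and the next enzyme after Erg1, had a difference of -0.18 ± 0.12, named after its value was seen. ERG27, chosen in the same way, was the gene that fell, at -0.33 ± 0.099, and its call ended without any single tra1-2ts array or the TRA1 60 min array, with adjusted p from 0.0506 to 0.0875 (limma).

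The other uses of farnesyl and isopentenyl diphosphate did not move as a group. Of 13 genes of these branches 1 rose and 3 fell, with a median of 0.13. Those that fell included NUS1 and RER2, the subunits of the cis-prenyltransferase that makes dolichol precursors, at -0.59 ± 0.10 and -0.60 ± 0.16, while SRT1, another cis-prenyltransferase gene, rose by 0.56 ± 0.12 (SE). RER2 read 5.83, 5.88 and 5.93 in tra1-2ts, against 6.09, 6.72 and 6.64 in TRA1, and its call ended without the tra1-2ts or the TRA1 90 min array (adjusted p of 0.0501 and 0.0529, limma). STE24, a protease that processes prenylated a-factor, was the other that fell, at -0.65 ± 0.13. When arrays were paired by time as a block, 2 genes of this list were called higher, and 4 with each array centred on its median.

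Among 9 regulators of sterol genes 2 rose and 1 fell. SUT1, which promotes sterol uptake in cells short of oxygen, read 4.04, 4.06 and 4.06 in tra1-2ts, against 5.34, 5.50 and 5.04 in TRA1, a difference of -1.24 ± 0.12 (SE; limma adjusted p = 0.000178). Its 3 tra1-2ts values lie above the highest mouse control mean, 3.93, and under the highest single value of a mouse control, 4.22. They are therefore close to background, and the difference may understate the size of the fall. ROX1, the repressor of hypoxic genes, rose by 0.66 ± 0.14 (adjusted p = 0.00648). ECM22, an activator of sterol genes, rose by 0.34 ± 0.10 (adjusted p = 0.0288), and its call ended without the tra1-2ts 90 or 120 min or the TRA1 60 or 90 min array, with adjusted p from 0.066 to 0.118 (limma). Its relative UPC2 had a difference of -0.12 ± 0.088, and HAP1, the heme-dependent activator, one of 0.49 ± 0.21 that did not pass (adjusted p = 0.092) and was called in the fit that pairs arrays by time as a block (adjusted p = 0.032) and with quantile normalization over the tested genes (0.0442). With single arrays left out the difference of HAP1 ran from 0.25, without the TRA1 120 min array, to 0.62, without the TRA1 60 min array, and was called in none of these fits (adjusted p up to 0.255, limma). SUT2, MOT3, MGA2 and SPT23 did not pass, at -0.03, 0.16, -0.10 and 0.19. MOT3 lay below the brightest mouse control on every array, and the sign of SUT2 turned with the scaling. UPC2 read 4.28 to 4.55 and MGA2 4.34 to 4.74, little above the highest single mouse control value of 4.22. Differences of UPC2 and MGA2 may therefore be understated.

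Turnover of Hmg2 protein goes through the Hrd1 ubiquitin ligase of the endoplasmic reticulum and is held back by the Nsg proteins, the yeast relatives of mammalian INSIG. Of 9 genes listed for Hrd1-dependent degradation and the Nsg proteins, 2 rose and 2 fell. Whether each of them acts on Hmg2 was not tested. DFM1, a membrane protein of the degradation pathway, read 8.77, 8.76 and 8.75 in tra1-2ts, against 8.04, 8.02 and 8.05 in TRA1, a rise of 0.73 ± 0.079 (SE; limma adjusted p = 0.000302). UBC7, the ubiquitin-conjugating enzyme, rose by 0.50 ± 0.086. NSG1 and NSG2 fell by 0.31 and 0.30 on the log2 scale, and both calls ended with quantile normalization over the tested genes (adjusted p of 0.0715 and 0.0572, limma). The call of NSG1 also ended with centring on array medians (0.0603) and without the tra1-2ts 90 or 120 min or the TRA1 90 or 120 min array (0.0852 to 0.128), and that of NSG2 without either 90 min array (0.057 and 0.0514). HRD1 and HRD3, the ligase and its partner, differed by 0.17 ± 0.096 and 0.26 ± 0.11, and USA1, CUE1 and DER1 by 0.07, -0.03 and -0.35; none of these 5 passed. The call of HRD3 came in the fit that pairs arrays by time as a block (adjusted p = 0.0454), with centring on array medians (0.0491) and without the TRA1 60 min array (0.0416), and that of DER1 without the tra1-2ts 60 min array (0.0444). The difference of DER1 ran from -0.49 in that fit to -0.21 without the TRA1 90 min array (adjusted p = 0.32, limma), and its tra1-2ts values at 90 and 120 min, 3.89 and 3.82, lie below the brightest mouse control mean of 3.93.

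**Figure D5:**
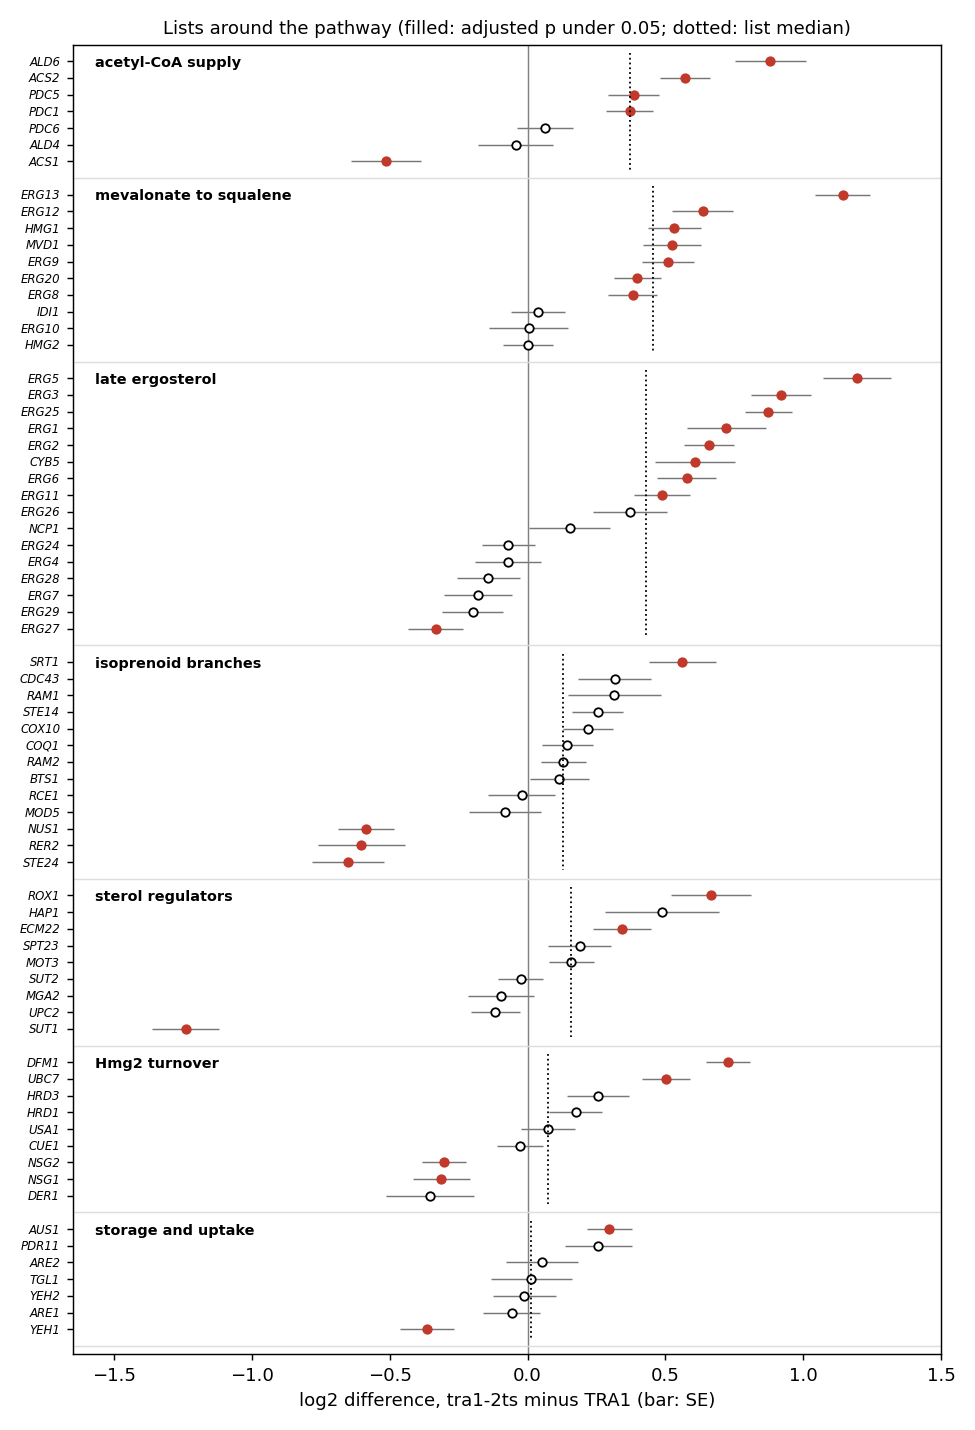
Log2 difference of tra1-2ts minus TRA1 (horizontal axis) with its standard error for every gene of 7 lists, from acetyl-CoA supply at the top to sterol storage and uptake at the bottom, filled red where the adjusted p is under 0.05. The dotted line of each list is its median, 0.37 for acetyl-CoA supply, 0.45 for mevalonate to squalene and 0.43 for late ergosterol, and 0.01 to 0.16 for the other 4.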

How the data were processed

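The deposited values are log2 signals; per the submitters' processing notes the authors made them with RMA in the R package oligo, whose version is not given in the sources used here. RMA equalises the distributions of the arrays, so a rise or fall of the whole mRNA pool would be removed. Labelling used a 3' in vitro transcription kit, per the labels' protocols.

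The platform annotation named the probe sets, and symbols were taken from the RefSeq gene table of assembly R64, where all 5668 probe sets with 1 gene matched by gene ID; 183 with several genes and 925 with none were left out. The brightest probe set per gene was kept, which left 5551 genes. Columns of other samples numbered 0. No sequence and no coordinate is given.

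Tests used limma 3.58.1 in R 4.3.3 (linear fits, empirical Bayes, two-sided, Benjamini-Hochberg over all tested genes, threshold 0.05): genotype alone over 6 arrays, genotype with a shared slope over minutes, and a slope per strain. The log ratio of HMG1 to HMG2 was compared by an exact permutation test that was not planned. The limma fits were tested on simulated data. Members, lists and tests were chosen with earlier results of these data known. Genes named are the 10 members, up to 6 called genes with the smallest p from each list, all sterol regulators and Hmg2 turnover genes, and the 5 genes most like the members' mean, HMG1 and HMG2; ERG7, ERG27, ALD4, MF(ALPHA)1, SAG1 and the neighbouring genes were named after their values were seen.

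Arrays with the same number in their titles share a time point, a pairing given by the labels. After subtracting strain means, same-time arrays correlated across genes with r of 0.31, 0.0656 and 0.33 at 60, 90 and 120 min. The alternatives were pairing by time, time as a covariate, scaling, a filter on dim genes, moderation, all probe sets as rows, log2 of minutes, a threshold of 0.01, and arrays or times left out.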

Additional observations from a re-analysis of the deposited data

Results flagged for a closer look

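ERG13 was the gene of the 10 whose signal went up at each step in tra1-2ts (9.71, 9.79 and 9.84 at 60, 90 and 120 min) and down at each step in TRA1 (8.78, 8.63 and 8.50). The difference between the slopes was 0.41 ± 0.18 per 60 min (SE). It did not pass the test over all genes (limma, unadjusted p = 0.0639 and adjusted p = 0.717).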

How the results depend on the processing

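Among the 7 genes that rose, each strain difference was recomputed under 16 alternatives, and 108 of the 112 values kept direction and call. The 4 that no longer passed were HMG1, ERG8 and ERG20 without the 90 min arrays and ERG8 without the 120 min arrays. That 0 reversed was largely fixed in advance. All tra1-2ts arrays of these genes lay above all TRA1 arrays, so leaving out arrays could not turn a sign. The dim-gene filter, moderation, all probe sets as rows, pairing by time and time as a covariate leave the difference itself unchanged. The count of these genes called was 4 to 7 with arrays or times left out, and in the fit that pairs arrays by time as a block it was 7, as under every other setting run. The block changed none of the 10 strain calls; for ERG13 the difference stayed 1.14 (limma adjusted p = 0.000398). Over all tested genes the counts depended more on the setting: 576 were higher and 808 lower at a threshold of 0.01, 651 were higher without the tra1-2ts 90 min array, and 1248 were higher and 1114 lower with centring on array medians. The time slope called 4 genes up and 14 down, against 2 and 4 with all probe sets as rows, 7 down without dim genes, and 0 to 4 and 0 to 8 with an array left out. The slope difference called 0 genes each way, and up to 108 up and 102 down with an array left out, which leaves 1 residual degree of freedom; none of the 10 genes was called by either slope test under any setting.

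Signs turned for differences near 0. With arrays or times left out, the strain difference ran from -0.14 to 0.099 for ERG10, -0.068 to 0.076 for HMG2 and -0.032 to 0.15 for IDI1; for the listed genes, leaving out single arrays gave -0.17 to 0.016 for MGA2 and -0.062 to 0.00684 for CUE1. With quantile normalization and with centring, SUT2 was at 0.038 and 0.020 and CUE1 at 0.00396 and 0.016, and the Hmg2 turnover list had 0 and 1 genes called lower in place of 2, while the isoprenoid branch list had 3 and 4 called higher in place of 1. The time slope of IDI1 was 0.019 with quantile normalization. With arrays left out, time slopes ran from -0.20 to 0.052 for ERG13, -0.096 to 0.14 for HMG2, -0.11 to 0.059 for IDI1 and -0.021 to 0.20 for ERG9. Slope differences ran from -0.34 to 0.52 for ERG10, -0.092 to 0.47 for HMG1, -0.098 to 0.28 for ERG8, -0.26 to 0.53 for MVD1, -0.33 to 0.41 for IDI1, -0.25 to 0.13 for ERG20 and -0.012 to 0.48 for ERG9. None of these values passed the test, and the cause was not tested. The number of arrays limits the precision.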

Other observations

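Sterol storage and uptake genes showed no common direction: of 7 genes, 1 rose and 1 fell, with a median of 0.01. YEH1, a steryl ester hydrolase, differed by -0.36 ± 0.098 and AUS1, a sterol importer of cells without oxygen, by 0.30 ± 0.082 (SE). The call of YEH1 ended without the tra1-2ts 60 or 120 min array (adjusted p of 0.0518 in both fits, limma), and that of AUS1 without the tra1-2ts 90 or 120 min or the TRA1 90 min array (0.0612 to 0.0646).

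For the 10 mevalonate genes the median SD over the 3 arrays was 0.0652 in tra1-2ts and 0.123 in TRA1. The SD was lower in tra1-2ts for 8 of the 10 and higher for ERG20 (0.064 in tra1-2ts and 0.058 in TRA1) and ERG9 (0.11 and 0.074). Over all tested genes the median SD was 0.106 in tra1-2ts and 0.131 in TRA1, and 59.7% had the lower SD in tra1-2ts; the difference in SD was not tested.

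Over the 6 arrays, which share the strain contrast, the mean profile of the 10 genes was most like those of IES4, BIR1, YER010C, DIB1 and PIG2 outside the pathway, with Pearson's r of 0.996 to 0.998. HMG1 was most like PEX14, FAR1, YBP2, YAK1 and YOR385W (r of 0.996 to 0.999), and HMG2 most like FEN2, BIM1, YFL040W, GPI1 and CPD1 (0.948 to 0.983). Against the mean of the other members, the 7 genes that rose had r of 0.92 to 0.99, and ERG10, HMG2 and IDI1 had 0.16, -0.18 and 0.29. The strain contrast enters these r as well, so they repeat the strain calls and are no separate result.

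The 20 genes next to the 10 on their chromosomes, in the order of the RefSeq table, were all measured. Of these 5 were called higher (SUV3, HFA1, ESC1, AGA1 and QCR8) and 4 lower (PGA3, WAR1, FPR3 and FPR4) in tra1-2ts, with a median difference of 0.04. Over all tested genes 18.3% were called higher and 22.3% lower.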
